A study of Drosophila melanogaster with 2 samples.

Results

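Peaks of kay were examined at 10 genes known as targets of Jun N-terminal kinase (JNK) signalling and of the transcription factor AP-1, out of 13945 annotated protein-coding genes on the nuclear chromosome arms. They are Mmp1, Ets21C, Ilp8, upd3, scaf, cher, pnut, rpr, hid and raw, chosen by name with earlier results of these data known. For each gene, every peak was taken whose summit lay inside the gene or within 1 kb of one of its transcription starts. The peaks come from chromatin immunoprecipitation with sequencing (ChIP-seq) of kay, the fly Fos protein, in whole adult male Drosophila melanogaster of the strain kay-GFP, which stably carries kay with GFP at its C-terminus. The precipitating antibody was against GFP. The 2 biological replicates, numbered 1 and 3, form 1 group, and the labels name no treatment or injury and give the age as unknown. All tissues were mixed, so a site used in few cells and a weak site in many cells cannot be told apart. With 1 group and no control library analysed here, no comparison of conditions and no test over samples was possible, and the values below are descriptions.

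JNK is a stress-activated kinase that acts in epithelial closure, wound repair, regeneration and cell death. It phosphorylates the Jun protein Jra, which pairs with kay to form AP-1. AP-1 binds the DNA letters TGACTCA, which read TGAGTCA on the other strand, and both spellings are called the AP-1 site here. The 10 genes stand for several outputs of the pathway. Mmp1 is a protease of the extracellular matrix, scaf an inactive protease homologue, cher the actin cross-linker filamin and pnut a septin. upd3 is a cytokine of the JAK/STAT pathway, and Ilp8 is a relaxin-like hormone that delays development after tissue damage. Ets21C is an ETS transcription factor, rpr and hid are cell death activators that bind the inhibitor Diap1, and raw restrains JNK signalling in the embryo.

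The following stretches of the Release 6 genome (dm6) are shown because they hold the only AP-1 sites of the target genes that lay within 100 bp of a kay summit in any list. Each is written 5′ to 3′ in the direction of the gene's transcription, here the minus strand, with the AP-1 site in capitals. The Ets21C stretch is chr2L:552728-552754, the cher stretch chr3R:17116136-17116336, which is the whole window of 100 bp to each side of the summit, and the hid stretch chr3L:18171222-18171248.
Ets21C: aatggacgggTGACTCAtacggactag
cher: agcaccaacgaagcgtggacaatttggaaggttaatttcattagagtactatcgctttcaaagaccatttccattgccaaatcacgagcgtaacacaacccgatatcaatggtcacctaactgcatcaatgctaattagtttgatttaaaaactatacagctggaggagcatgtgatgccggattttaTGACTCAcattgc
hid: acacacacatTGACTCAgacctgatac

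The next stretches hold AP-1 sites close to the start of a gene that had no summit in any of the 4 lists. The Ilp8 stretch, chr3L:17032512-17032538, has its site 445 bp upstream of the only start. The rpr stretch, chr3L:18398270-18398296, has its site 152 bp downstream of the only start, in the 5′ UTR. Both are printed on the minus strand, with the site in capitals.
Ilp8: catgtgactgTGACTCAgtgagtccgc
rpr: agaaagttatTGAGTCActaccagttg

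The last stretches lie under summits without an AP-1 site. The upd3 window, chrX:18282395-18282595 on the plus strand, has in capitals the letters TGATTCA, a match to the looser pattern TGANTCA and not itself an AP-1 site. The raw stretch, chr2L:8714715-8714742 on the minus strand, has in capitals the cyclic AMP response element TGACGTCA, a site of leucine zipper factors.
upd3: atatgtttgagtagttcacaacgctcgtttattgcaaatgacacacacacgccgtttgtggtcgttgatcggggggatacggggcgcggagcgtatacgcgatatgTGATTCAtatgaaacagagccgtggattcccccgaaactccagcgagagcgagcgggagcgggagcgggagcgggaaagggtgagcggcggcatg
raw: tcacttcactTGACGTCAtttcacaaaa

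Of the target genes, 6 had a kay summit in the list called on both replicates pooled, and pnut was the only one in the stricter optimal list. The pooled list held 4350 peaks and runs down to weak ones, of which 327 had a q-value of at most 0.05. The optimal list held 199 peaks that passed the authors' irreproducible discovery rate step. In the pooled list the 6 genes were pnut, raw, upd3, cher, Mmp1 and hid, against 15.2% of all protein-coding genes by the same rule. In the optimal list 1 of 10 had a summit, against 1.22%. The replicate 1 list of 2060 peaks gave the same count of 6, against 9.52%. The replicate 3 list of 13835 peaks gave 7, with Ets21C as the addition, against 34.7%. Ilp8, scaf and rpr had no summit in any of these lists.

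**Figure D1:**
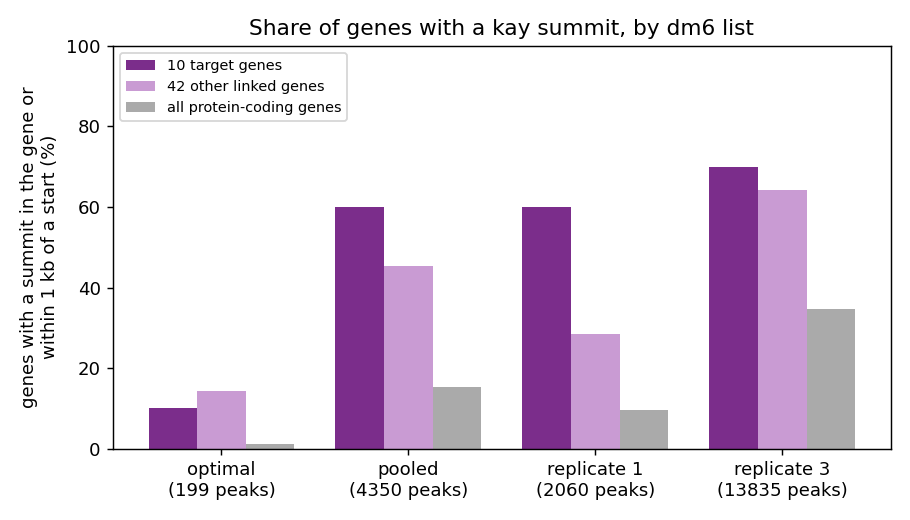
Percentage of genes with a kay summit in the gene or within 1 kb of a start (y axis) in each of the 4 dm6 lists (x axis), for the 10 target genes, the 42 other genes linked to JNK or AP-1, and all 13945 protein-coding genes. The bars are shares of genes and carry no replicate error. The target genes stand above all protein-coding genes in each list, with 6 of 10 against 15.2% in the pooled list. Both gene lists were chosen with earlier results of these data known, so these shares do not test for an excess.

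Long genes made up 5 of the 6. A gene of at least 4999 bp belongs to the longest 25% of protein-coding genes, as 7 of the targets do. Of these 7, 5 had a pooled summit, against 35.5% of the longest 25%. In replicate 1 it was 5 of 7, against 23.7%, and in replicate 3 it was 6 of 7, against 66.1%. The optimal list gave 0 of 7, against 3.04%. Of the 3 shorter targets, pnut had a summit in every list, while Ilp8 and rpr had none. Most genes of that size had none. Of genes of 168 to 1179 bp, as rpr is, 5.3% had a pooled summit and 17.1% one in replicate 3. For genes of 2167 to 4998 bp, as Ilp8 and pnut are, these shares were 11.8% and 32.3%. With summits within 1 kb of a start only, the pooled count was 4 of 10 (pnut, raw, Mmp1 and hid), against 11.0% of protein-coding genes. By that rule the optimal list gave 1 of 10 against 0.896%, replicate 1 gave 4 against 6.63%, and replicate 3 gave 7 against 27.2%.

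The best summits of the targets lay below the top of each list. By the authors' signal the best pooled summit ranked 182 of 4350 for pnut, 279 for raw, 298 for upd3, 440 for cher, 846 for Mmp1 and 1363 for hid. The signal is the authors' own value per peak, on a scale of its own in each list, so it served only for order within a list. Of the 12 pooled summits of the targets, 3 had a q-value of at most 0.05, those of pnut, raw and upd3, against 6.81% of nuclear pooled summits. That makes 3 of 10 genes, against 2.14% of protein-coding genes. In replicate 1 it was 0 of 11 summits, against 7.36% of its nuclear summits, a share too low for 11 summits to show a difference. In replicate 3 it was 3 of 34, at pnut, Ets21C and raw, against 3.24%. The targets were chosen with earlier results of these data known, so these shares do not test for an excess.

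**Figure D2:**
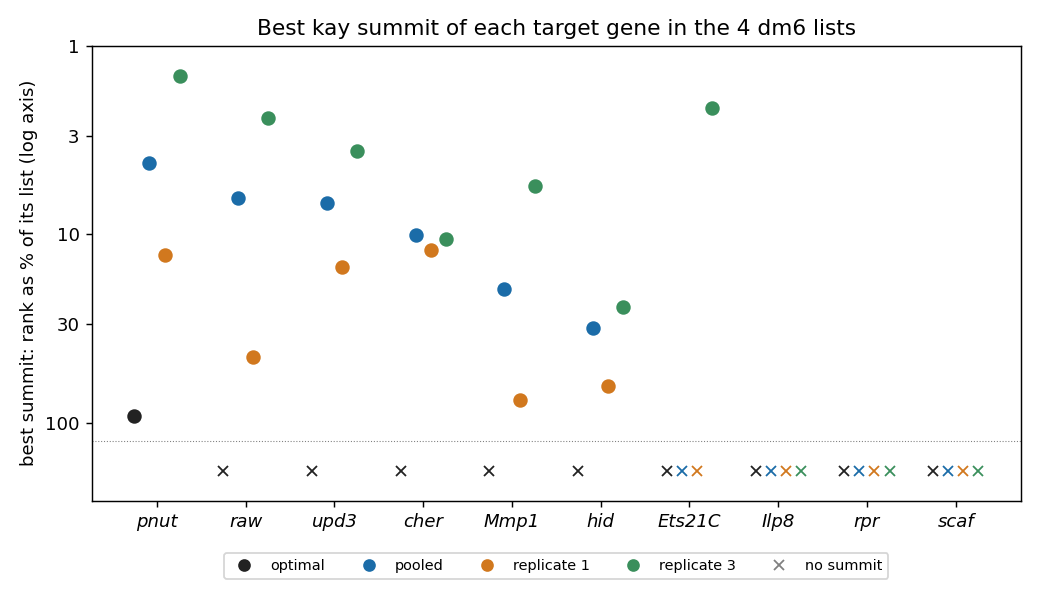
Rank of the best kay summit of each target gene as a percentage of the length of its list (y axis, log scale, best at the top), for the 4 dm6 lists. Crosses mark genes without a summit in a list: Ilp8, rpr and scaf have 4 crosses each, and Ets21C has a point in replicate 3 only. The lists differ in length, so heights compare genes within a list and not lists with each other.

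pnut encodes a septin, a filament protein of the cell cortex and of dividing cells. Its peak (FBgn0013726) spanned chr2R:8237536-8237955 with the summit at 8237746, in the 5′ UTR of the longer transcripts and 107 bp upstream of the inner of its 2 starts. The signal was 118 in the optimal list, where it ranked 183 of 199 against a lowest signal of 114, so the peak stood close to the lower end of that list. The authors' q-value there was 0.0137. In replicate 1 the peak ranked 266 of 2060 with a q-value of 0.0844, and in replicate 3 it ranked 200 of 13835 with a q-value of 0.00243. The replicate summits lay 12 bp apart. The nearest AP-1 site was 2750 bp away, downstream of the gene.

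raw carried the most summits of the targets, 6 in the pooled list, 4 in replicate 1 and 13 in replicate 3, over a span of 30781 bp. Its best pooled peak, chr2L:8739956-8740375, lay in an intron 494 bp downstream of the outermost start, with a signal of 98.2 and a q-value of 0.034. That signal is below the 114 at which the optimal list ended. Its summit fell on the same base, 8740166, in both replicates. In replicate 1 the peak was number 1076 of 2060 by signal, with a q-value of 0.547. In replicate 3 it was number 334 of 13835, with a q-value of 0.0314. The second pooled summit, rank 1618, lay 90 bp upstream of the innermost start, and both replicates had it within 7 bp of each other. It holds the response element printed above. The remaining 4 pooled summits ranked from 1904 to 3893, and each had a peak in 1 replicate alone.

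upd3 had its best summit inside the gene and far from the start. The gene lies on the X, of which males carry a single copy, and ranks were not adjusted for that. The pooled peak, chrX:18282285-18282704, lay in the last intron, 5262 bp downstream of the start, with a signal of 95.9 and a q-value of 0.0419. In replicate 1 it stood at rank 306 of 2060 and in replicate 3 at rank 500 of 13835, with summits 69 bp apart. The q-values were 0.119 in replicate 1 and 0.0509 in replicate 3. The letters TGATTCA printed above lay 9 bp from the pooled summit. No AP-1 site lay in upd3 or within 1 kb of it, which holds for no other target. Replicate 3 had a further summit 986 bp upstream of the start, at rank 8962.

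cher, the filamin gene, had an intronic peak at chr3R:17116026-17116445, 2846 bp downstream of the nearest start. It had a pooled signal of 81.8 and a q-value of 0.0919. It stood at rank 249 of 2060 in replicate 1 with a q-value of 0.0741, and at rank 1458 of 13835 in replicate 3 with a q-value of 0.248. The AP-1 site printed above lay 91 bp from the pooled summit and 90 bp from that of replicate 1. From the summit of replicate 3 it lay 133 bp away. The gene has 7 AP-1 sites in all, and the other 6 lay at least 3441 bp from any pooled summit.

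Mmp1 had 1 pooled peak, at chr2R:24685105-24685524, in an intron of the longer transcripts and 225 bp upstream of the innermost of its 3 starts. The pooled signal was 62.9 with a q-value of 0.239. Replicate 3 had it at rank 769 of 13835 with a q-value of 0.118, and replicate 1 at rank 1566 of 2060 with a q-value of 0.757. The nearest of the 6 AP-1 sites lay 618 bp from the pooled summit. The site closest to a start, 211 bp upstream of the outermost one, was 3080 bp away.

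hid had weak summits spread along the gene. Its pooled summits lay 9914 bp into the gene, in an intron (rank 1363, signal 52.3, q-value 0.388), and 535 bp upstream of the start (rank 2247, signal 41.8, q-value 0.628). Both were seen in each replicate, with summits 10 and 2 bp apart. Replicate 3 had 10 summits at hid, the best at rank 3372. The AP-1 site printed above lay 49 bp from one of these, at rank 5307, 14357 bp into the gene. That summit had a q-value of 0.631 and lay nearer to a start of CG13699, 8762 bp away. Replicate 1 had no peak there.

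Ets21C was marked in replicate 3 alone. The peak, chr2L:552505-552928, lay in the 5′ UTR, 206 bp downstream of the outermost start, and ranked 294 of 13835 with a signal of 62.8 and a q-value of 0.0153. The AP-1 site printed above lay 24 bp from the summit, the closest pair of site and summit among the targets. The nearest summit outside the gene was 59070 bp away in replicate 1 and 56895 bp away in the pooled list. Of the 263 nuclear peaks of replicate 3 that ranked as high or higher, 90 (34.2%) overlapped no peak of replicate 1 and 60 (22.8%) no pooled peak.

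**Figure D3:**
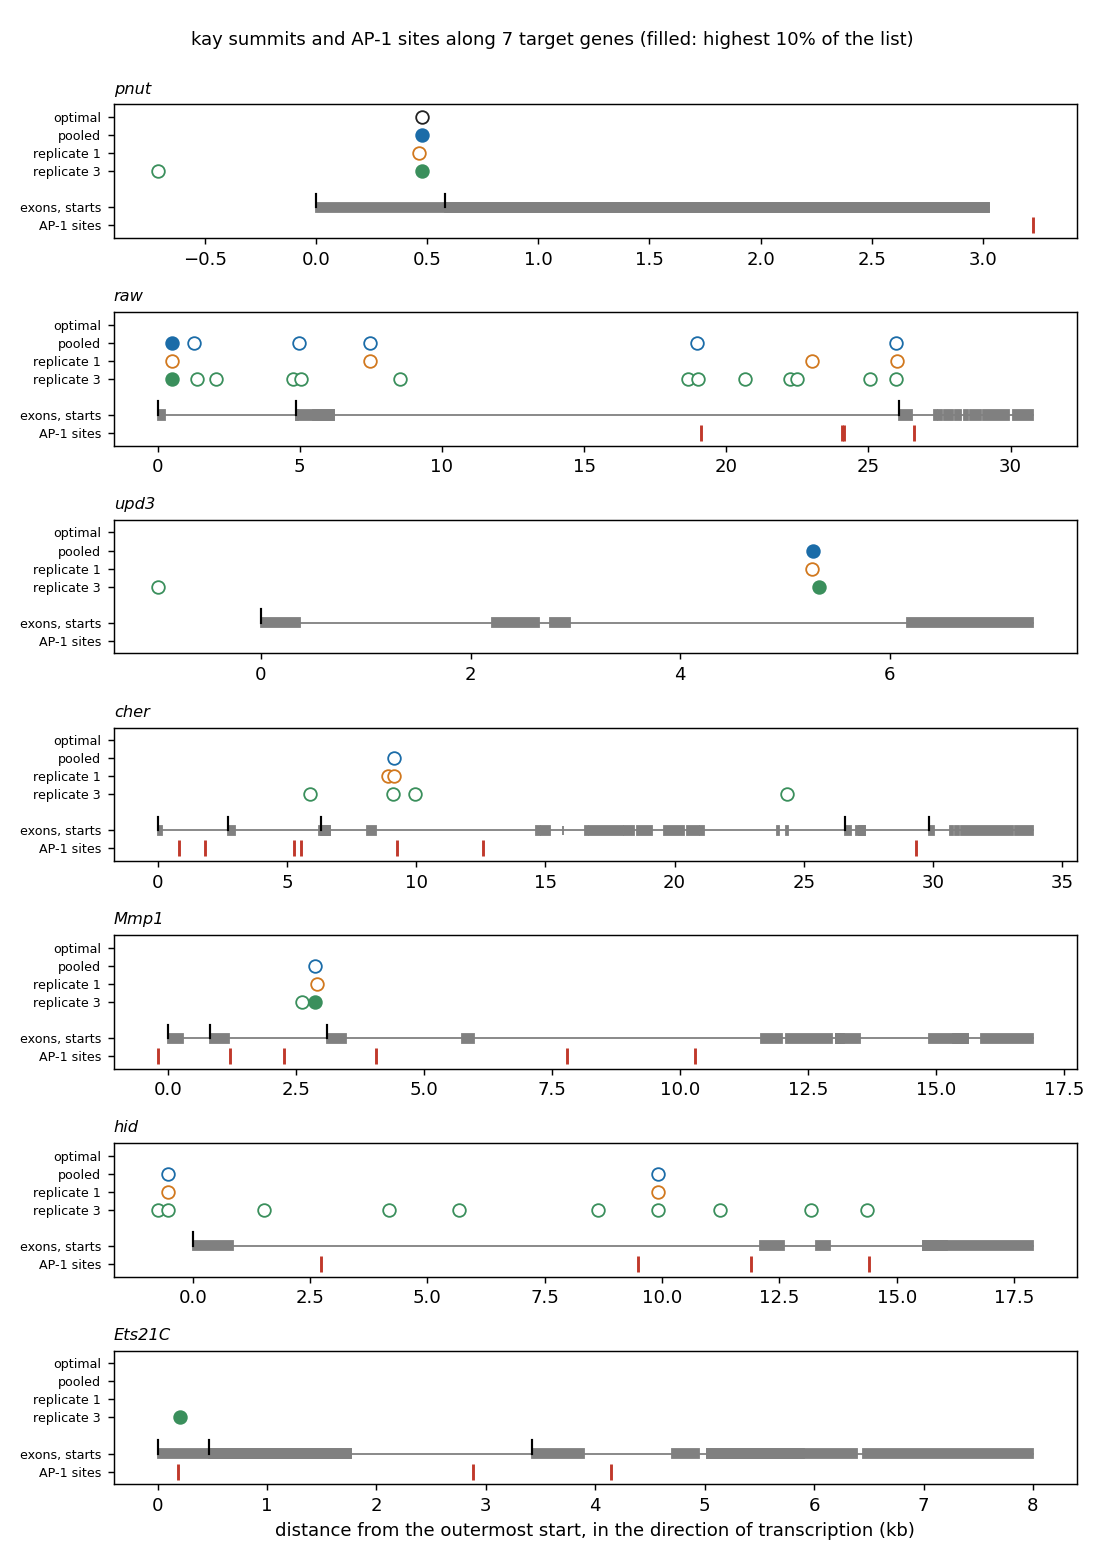
kay summits along the 7 target genes that had any, by distance from the outermost start in kb (x axis, transcription to the right), with 1 row of circles per dm6 list. Filled circles are in the highest 10% of their list, grey boxes are exons, black ticks starts and red ticks AP-1 sites. Summits of pnut, raw, upd3, cher, Mmp1 and hid line up between the replicates, while most further summits of raw and hid are in replicate 3 alone.

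The nearest summit to Ilp8, scaf or rpr in any of the 4 lists was 4333 bp from the gene, at scaf in replicate 3. For Ilp8 the nearest summit to the gene was 20858 bp away in the pooled list, 21973 bp in replicate 1 and 16743 bp in replicate 3. For rpr these distances were 25381, 211362 and 25368 bp. For scaf they were 5241, 10901 and 4333 bp, and the pooled and replicate 3 summits lay nearest to a start of Cndp2. The scaf gene (FBgn0033033) is 14974 bp long and had an AP-1 site 176 bp upstream of its outermost start, 5065 bp from the nearest pooled summit. So each of these 3 genes has an AP-1 site within 445 bp of a start and no summit at it. A site without a summit is the usual state. Of all 11142 nuclear sites, 2.23% lay within 100 bp of a pooled summit and 4.6% within 100 bp of one in replicate 3.

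Most pooled summits of the targets had a peak in both replicates, and their places in the genes are given as counts only. Of the 12, 9 lay in introns, 2 in 5′ UTRs and 1 upstream, and 6 were within 1 kb of a start. No share of such places over all nuclear pooled peaks is given, so these counts mark no trait of the targets. All 12 peaks had the same width of 420 bp. A peak of each replicate overlapped 8 of the 12, against 39.7% of the 4317 nuclear pooled peaks. The pooled list is made from both libraries, so this share describes the list and does not measure reproducibility. Of the other 4, 1 had a peak in replicate 1 alone and 3 in replicate 3 alone, all at raw. raw and hid together gave 8 of the 12 pooled summits and 23 of the 34 in replicate 3.

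AP-1 sites were denser in the target genes than in all protein-coding genes. Few of them lay under summits, as was so for all nuclear sites. Counting each gene with 1 kb to either side, the targets held 30 sites, or 1.92 per 10 kb, against 0.842 per 10 kb for all protein-coding genes. A site lay in 9 of the 10, against 36.8% of protein-coding genes. Of the targets in the longest 25% it was 6 of 7, against 70.9% of the longest 25%. These 7 targets held 1.81 sites per 10 kb, against 0.87 per 10 kb for the longest 25%. Mmp1 had 6 sites, cher 7, hid and raw 4 each, and Ets21C 3. The sites are a property of the sequence and say nothing of occupancy by themselves.

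Of the 30 sites, 1 lay within 100 bp of a pooled summit (in cher), against 2.23% of all 11142 nuclear sites. It was 1 in replicate 1, at the same cher site, against 1.44%, and 2 in replicate 3 (Ets21C and hid), against 4.6%. These counts are too small to be read as differing from the background. A site in raw lay 140 bp from a pooled summit and 116 bp from one of replicate 3. The other distances to a pooled summit ran from 435 bp in hid up to 64711 bp in Ets21C.

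**Figure D4:**
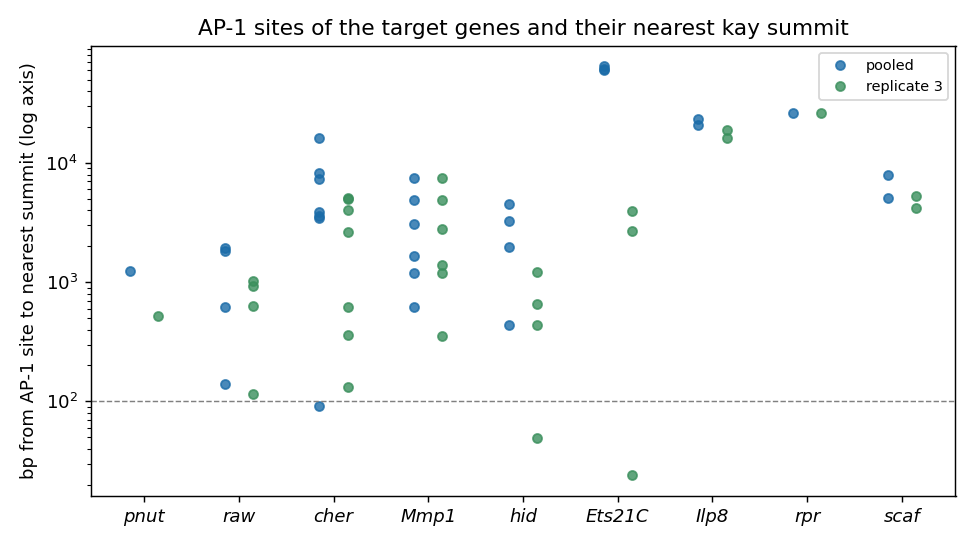
Distance in bp from each of the 30 AP-1 sites in the target genes or within 1 kb of them to the nearest kay summit (y axis, log scale), in the pooled list and in replicate 3. The dashed line marks 100 bp: 1 site of cher is below it in the pooled list, and 1 site each of hid and Ets21C in replicate 3.

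Read from the summits, 1 of 12 pooled target summits held an AP-1 site within 100 bp, against 5.58% of nuclear pooled summits. It was 1 of 11 in replicate 1, against 7.36%, and 2 of 34 in replicate 3, against 3.49%. The optimal pnut summit held none, against 23.0% of nuclear optimal summits. Of all 23581 windows of the same 201 bp length centred on annotated starts, 1.66% hold the site. The looser TGANTCA, which includes it, lay at 2 of 12 pooled target summits (cher and upd3), against 10.8% of nuclear pooled summits and 3.91% of start windows. TGACGTCA lay at 1 of 12 (raw), against 0.695% and 0.267%. GAGAGAG, the letters bound by GAGA factor, lay at 0 of 12, against 6.12% and 4.4%. All motifs were searched on both strands.

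The other genes of the pathway were set beside the targets as 22 genes of the JNK cascade and 20 further genes linked to JNK or AP-1. All were chosen with earlier results of these data known, and neither gene span nor the single X of males was taken into account here. Of all protein-coding genes, 15.2% had a pooled summit and 1.22% an optimal one. In the pooled list 6 of 10 targets had a summit, against 19 of the 42 other linked genes, 10 of them in the cascade. In the optimal list it was 1 of 10, against 6 of 42: puc, Jra, Rac2, chic, ftz-f1 and Thor. pnut, at rank 182 of the pooled list, stood below all 6. The best summit ranked 55 for puc, the JNK phosphatase, 54 for Jra, 39 for Rac2, a small GTPase, and 38 for chic, profilin. Thor, the translation repressor 4E-BP, ranked 101, and the nuclear receptor gene ftz-f1 ranked 137. No AP-1 site lay within 100 bp of the optimal summit of pnut, nor of those of Jra, Thor or ftz-f1, while Rac2, chic and both optimal summits of puc had one. Outside the optimal list, 1 Jra summit held such a site in the pooled list and in each replicate's list. For ftz-f1 it was 1 in the pooled list and 1 in replicate 3. pnut and Thor had none in any list.

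Close relatives of the targets had no optimal summit, and only 1.22% of all protein-coding genes had one. upd1 and upd2, the other ligands of the upd3 family, and grim and skl, cell death genes related to rpr and hid, had 0 summits in each list. Most genes of their size had none either. Of genes of 1180 to 2166 bp, as grim and skl are, 8.07% had a pooled summit and 23.5% one in replicate 3. For genes of 2167 to 4998 bp, as upd1 and upd2 are, these shares were 11.8% and 32.3%. Of the genes named here, upd1, upd2, upd3, hep and Tak1 lie on the X, of which males carry a single copy. Neither these shares nor the ranks were adjusted for that, and its bearing on them was not tested. The best pooled summit of Mmp1 ranked 846, and that of Mmp2, the other matrix metalloproteinase gene, ranked 3725, 31 bp from a start. Mmp2 had no summit in replicate 1 and 4 in replicate 3, the best at rank 2816. Timp, the gene of the inhibitor of these proteases, had none in the pooled list, 1 in replicate 1, at rank 1133, and 4 in replicate 3, the best at rank 4317. In the cascade itself bsk, the JNK gene, had 2 pooled summits, the best 136 bp upstream of a start at rank 374. It had no summit in replicate 1 and 3 in replicate 3, the best at rank 288 and 207 bp upstream of a start. Tab2, which encodes an adaptor of the kinase Tak1, ranked 237 in the pooled list, 252 in replicate 1 and 293 in replicate 3. hep, the kinase that activates JNK, and Tak1 had 1 summit each, in replicate 3 alone, at ranks 9604 and 7365. The ligand gene egr ranked 3974 in the pooled list, and it had no summit in replicate 1 and 1 in replicate 3, at rank 10003.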

How the data were processed

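ChIP-seq of GFP-tagged kay was analysed in 2 biological replicates of 1 group. The authors deposited peak lists on dm6 per replicate, pooled and after the irreproducible discovery rate step. Each replicate list was called against a control file, per the deposited listing. The sources used here give no aligner, caller, settings or read depth. Every deposited list gives the authors' signal per peak, the −log10 q-value, converted here to a q-value, and the summit offset. The dm3 lists were not used here. Summits were joined to Ensembl release 115 genes, without transposable elements, and to the Release 6 genome, on the same coordinates, with Python 3.11.15 and numpy 2.4.6. A gene counted with a summit in it or within 1 kb of a start. Of the listed symbols, 51 matched directly and 1, stit, through its synonym Cad96Ca. Site distances are from the site's middle base. Gene and motif assignment was tested on simulated data. No p-value was computed, since there is 1 group. Named genes are all targets, the other listed genes with an optimal summit, and any gene whose start was nearer to a target's summit. Under the last, CG13699 was nearer to 2 replicate 3 summits of hid. The relatives and cascade genes named last in the report were added after their values were seen. The members and lists were chosen with earlier results of these data known.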

Additional observations from a re-analysis of the deposited data

How the results depend on the processing

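The number of target genes with a summit was 6 in the pooled list, 6 to 7 in the list of a single replicate, and 6 with start distances of 500 bp or 2 kb or with peak intervals in place of summits. It was 4 near starts only, 3 among pooled peaks with a q-value of at most 0.05, and 1 in the optimal list. Of the 42 other genes, 19 had a pooled summit, 12 to 27 had one in a single replicate's list, 7 at that q-value and 6 in the optimal list. The 12 is replicate 1, whose list is the shorter. Target summits with an AP-1 site numbered 1 in the pooled list and 1 to 2 in a single replicate's list. They numbered 0 in the optimal list, at that q-value and within 50 bp, and 2 within 250 bp, within the whole peak or with TGANTCA. Stricter lists hold fewer peaks by construction. With the 2060 highest peaks of replicate 3, as many as replicate 1 has, 6 targets had a summit, against 11.0% of protein-coding genes, and 15 of the 42 others. Read depth is not given, so the absence of a summit may only mean that none was detectable. No paired analysis was possible because there is 1 group.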

Other observations

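The best summit of raw lay in a long inverted repeat, which was noticed after the sequence had been seen. Within 100 bp of the summit, at chr2L:8740066-8740266 on dm6, a run of 23 bases is followed, after 7 bases, by its exact reverse complement, with the middle of the repeat 17 bp from the summit. It was the only 1 of 4317 nuclear pooled summits with arms of 23 bp or more and at most 20 bp between them. The median longest arm was 6 bp. The stretch is printed on the minus strand, with the arms in capitals.
raw: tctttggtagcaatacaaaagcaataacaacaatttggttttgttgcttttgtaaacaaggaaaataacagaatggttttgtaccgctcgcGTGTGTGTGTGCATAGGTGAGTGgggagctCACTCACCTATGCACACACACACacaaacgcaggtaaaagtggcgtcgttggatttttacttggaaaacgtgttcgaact

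The cell death genes hid and rpr stand 212 kb apart on 3L, with grim between them, and kay summits were sparse in that stretch. It held 3 pooled summits, or 1.42 per 100 kb, against 3.22 per 100 kb over the nuclear arms. Replicate 1 gave 0.472 against 1.51 and replicate 3 gave 4.25 against 10.3. The best pooled rank in the stretch was 2247, the summit 535 bp upstream of hid. The 212 kb hold 26 AP-1 sites, beside 0.832 sites per 10 kb over the nuclear arms. Of all nuclear sites, 2.23% lay within 100 bp of a pooled summit. The stretch was chosen after the values were seen, and its gene density was not taken into account.

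The start of Ilp8 holds 9 overlapping or separate matches to GAGAGAG within 1 kb, the most of any target start, and its nearest kay summit in replicate 3, the longest list, was 16743 bp away. Overlapping matches were each counted, so a single repeat can give several. No share over all starts is given for this window, and a link with kay binding was not tested.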
